A study of Homo sapiens with 6 samples.

Results

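Binding of the chromatin protein DEK was examined at 8 genes that encode replication-independent histone variants: H3-3A, H3-3B, H2AZ1, H2AZ2, H2AX, MACROH2A1, MACROH2A2 and CENPA. These genes were chosen by name from 20163 protein-coding genes in GENCODE release 44 on GRCh37, and all 8 were found in it. A gene was given every peak that overlapped its body or the 10 kb on either side, so the rule itself used no measured value, although the genes were picked with earlier results of these data known. The cells were U937, an established human myeloid cell line. The series holds 2 chromatin immunoprecipitations sequenced with an antibody against DEK (replicates 1 and 2), 2 with an antibody against histone H3 trimethylated at lysine 4 (H3K4me3), a mark of active promoters, and 2 samples of chromatin without precipitation. The 4 peak lists of the precipitated samples were analysed here. All samples came from this 1 line, grown in medium with serum and crosslinked with formaldehyde, with no treatment or genotype named, and the labels do not say whether the replicates were separate cultures.

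Most histone proteins are made in S phase and are placed on newly copied DNA, whereas these histone variants can also be made outside it. Several are put into chromatin by their own chaperones. H3-3A and H3-3B encode the same protein, H3.3, and DEK itself has been described as a chaperone of H3.3. H2A.Z marks the nucleosomes beside active start sites, H2A.X is phosphorylated around DNA breaks, macroH2A carries a large extra domain and is known from silenced chromatin such as the inactive X chromosome, and CENP-A defines the centromere.

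The lists differed greatly in size. DEK replicate 1 held 15017 peaks and replicate 2 held 152779, or 10.2 times as many, with medians of 47 and 20 tags (sequenced fragments counted in the peak). Each DEK peak also has a score, which is 10 times the −log10 of its p-value, a fold enrichment over the local background, and a false discovery rate, which was 100% for every peak of replicate 1 and 0.74% to 16.67% in replicate 2. The H3K4me3 lists held 47523 and 29335 intervals and give positions alone. The methods of the study set a lower limit on reads for all samples and give no total for any of them, so the depth behind each list is not known exactly, and from 2 lists of such different length no spread between replicates could be estimated. Gene counts are therefore given for each list beside the share of all protein-coding genes.

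The start sites of the 2 H3.3 genes differed between the lists. H3-3B had a DEK peak over its transcription start site (TSS) in both replicates and was the only one of the 8 genes with any DEK interval found in both, where 15.7% of all protein-coding genes had one in such a window and 5.02% near a TSS. A count of 1 in 8 is near the first of these shares and is described here as a feature of H3-3B, not of the variant genes as a set. H3-3A had a start-site peak in replicate 2 and none in replicate 1. H2AZ1 showed the opposite order, with replicate 1 peaks at the start site and none there in replicate 2. The promoters of 6 genes are shown because they set side by side the gene with a peak in both replicates, genes with a peak in 1, and H2AZ2, where no DEK peak came within 1 kb of a start site. Each is the 250 bases upstream of the start of the Ensembl canonical transcript on the coding strand of GRCh37. Capitals mark the sequence CCAAT or its reverse complement ATTGG, known as the NF-Y box, and TATAAA, the TATA box. H3-3B lies at chr17:73775861-73776110 on the minus strand, H3-3A at chr1:226250167-226250416 on the plus strand, H2AZ1 at chr4:100871433-100871682 on the minus strand, H2AX at chr11:118966176-118966425 on the minus strand, CENPA at chr2:27008674-27008923 on the plus strand and H2AZ2 at chr7:44887687-44887936 on the minus strand.
H3-3B: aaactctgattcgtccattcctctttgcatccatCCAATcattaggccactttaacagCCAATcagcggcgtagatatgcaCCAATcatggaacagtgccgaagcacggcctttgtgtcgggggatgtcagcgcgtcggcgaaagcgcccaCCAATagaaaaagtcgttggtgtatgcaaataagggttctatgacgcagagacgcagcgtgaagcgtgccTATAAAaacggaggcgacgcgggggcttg
H3-3A: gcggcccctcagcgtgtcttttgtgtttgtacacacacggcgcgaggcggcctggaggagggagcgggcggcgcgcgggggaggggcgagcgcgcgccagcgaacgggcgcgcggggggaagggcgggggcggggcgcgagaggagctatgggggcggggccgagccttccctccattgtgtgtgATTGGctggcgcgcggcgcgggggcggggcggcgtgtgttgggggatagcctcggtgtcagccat
H2AZ1: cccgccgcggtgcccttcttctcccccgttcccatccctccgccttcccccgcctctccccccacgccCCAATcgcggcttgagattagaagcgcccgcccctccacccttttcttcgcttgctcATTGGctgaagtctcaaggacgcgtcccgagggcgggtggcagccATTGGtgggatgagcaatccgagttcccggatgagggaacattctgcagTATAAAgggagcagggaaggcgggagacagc
H2AX: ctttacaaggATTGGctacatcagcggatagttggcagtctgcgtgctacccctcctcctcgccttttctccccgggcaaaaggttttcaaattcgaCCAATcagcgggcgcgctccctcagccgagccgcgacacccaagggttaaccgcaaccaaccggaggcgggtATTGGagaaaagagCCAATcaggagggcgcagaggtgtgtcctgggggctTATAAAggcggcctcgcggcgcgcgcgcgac
CENPA: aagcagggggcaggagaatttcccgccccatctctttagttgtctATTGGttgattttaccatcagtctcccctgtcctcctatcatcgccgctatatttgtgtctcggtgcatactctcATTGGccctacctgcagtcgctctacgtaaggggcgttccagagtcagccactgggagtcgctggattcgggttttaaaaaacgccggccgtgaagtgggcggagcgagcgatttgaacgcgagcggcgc
H2AZ2: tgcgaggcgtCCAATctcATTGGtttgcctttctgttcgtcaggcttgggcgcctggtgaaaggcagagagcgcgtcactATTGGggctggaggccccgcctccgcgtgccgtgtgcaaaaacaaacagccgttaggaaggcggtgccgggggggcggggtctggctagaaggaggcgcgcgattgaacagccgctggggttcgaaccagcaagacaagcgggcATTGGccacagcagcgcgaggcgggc

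The promoters of H3-3B, H2AZ2 and H2AX each held 4 copies of CCAAT, a count reached by 1.15% of the 19881 promoters searched. H2AZ1 held 3 copies, CENPA 2 and H3-3A 1, while MACROH2A1 and MACROH2A2 held none, against 34.2% of all promoters with at least 1 copy. All 4 copies in H3-3B read in the direction of the gene, with first bases 216, 192, 169 and 99 bases upstream of the start. TATAAA was present in H3-3B, H2AZ1 and H2AX, at 29, 31 and 31 bases upstream, and in 9.26% of all promoters. H3-3A had neither TATAAA nor more than 1 CCAAT, but 6 copies of CCGCCC, the GC box, and 75.2% of its bases were G or C against 52.4% in H3-3B. The GC box was found in 5 of the 8 genes and in 59.1% of all promoters, and AGGAAG, the ETS core, in H2AZ2 alone among the 8 and in 27.9% of all. Neither CACGTG, the E-box (7.87% of all promoters), nor TGACGTCA, the cAMP response element (2.40%), occurred in any of the 8. Every motif was searched on both strands, where CACGTG and TGACGTCA read the same, and none of these motifs contains another. A match is a string of letters and not a measured site. Of the genes with 4 copies of CCAAT, H3-3B had a start-site DEK peak in both replicates, H2AX in replicate 2 and H2AZ2 in neither. H3-3A, with 1 copy, had one in replicate 2. A relation between these motifs and DEK peaks was not tested.

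DEK replicate 1 placed 7 peaks in the windows of 4 of the 8 genes, H3-3B, H2AZ1, MACROH2A1 and CENPA, where 32.6% of all protein-coding genes had a peak in the same kind of window. Replicate 2 placed 51 peaks in the windows of all 8 genes, against 90.9% of protein-coding genes, so its presence in a window says little about a gene. An interval found in both replicates lay in the window of 1 gene, H3-3B, with 15.7% of all genes as background. The windows span 367 kb in all. Summed together, they held 0.191 peaks of replicate 1 per 10 kb, compared with 0.0668 over the windows of all coding genes. For replicate 2 these values were 1.39 and 0.818. Each value divides the summed peaks by the summed length of the windows, so long genes weigh most in it. The part of gene length in these differences was not tested. The sums did not describe each gene alike. Among coding genes by replicate 2 density, H3-3B stood at percentile 95.0, CENPA at 77.3 and MACROH2A1 at 71.2. The other variant genes lay between percentiles 28.1 and 61.1.

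Within 1 kb of an annotated TSS, a DEK peak was found at 2 genes in replicate 1 (H3-3B and H2AZ1) and at 6 genes in replicate 2 (all but H2AZ1 and H2AZ2). The shares for all protein-coding genes were 10.2% and 62.4%. With the canonical TSS alone, these were the same 2 genes in replicate 1 (background 5.87%) and 5 genes in replicate 2 (background 48.3%), because the replicate 2 peaks of MACROH2A2 near a start site lie at internal transcripts. Only H3-3B had a start-site interval shared by both lists, and 5.02% of all coding genes had one. H3K4me3 was near a TSS of all 8 genes in replicate 1 (background 61.9%), of 7 in replicate 2 (58.8%) and of the same 7 in the intersection of both (58.6%), the exception being MACROH2A2. At the 58 genes of the replication-dependent core histones in the same annotation, 41 had a start-site DEK peak in replicate 1 and 56 in replicate 2. A start-site interval shared by both was found at 39. In each DEK list and in their intersection, the 8 variant genes were nearer in share to all coding genes than to the core histones.

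**Figure D1:**
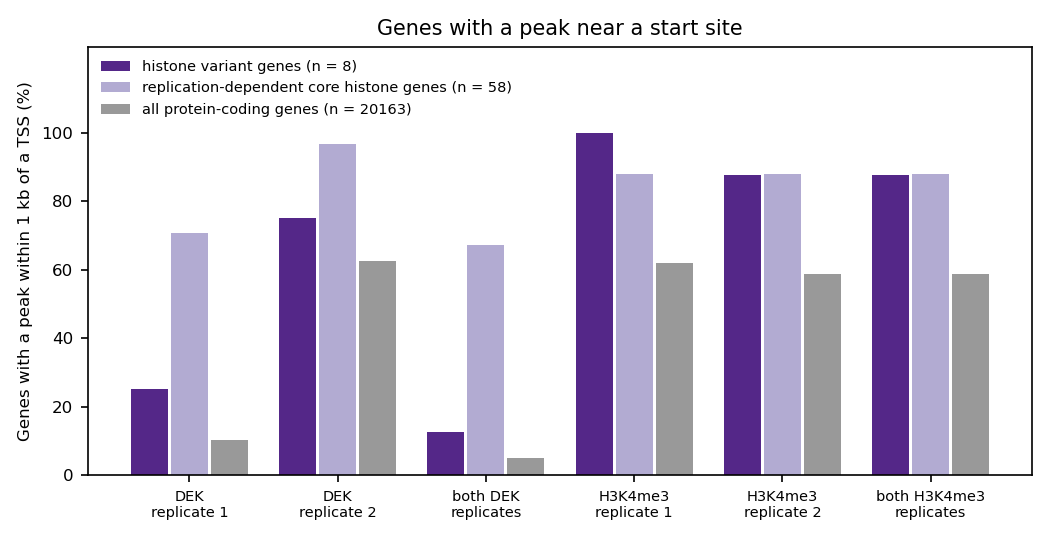
Bars give the percentage of genes with a peak within 1 kb of any annotated TSS in each list and in the intersection of both replicates, for the 8 histone variant genes, 58 replication-dependent core histone genes and 20163 protein-coding genes. In both DEK replicates together the share is 12.5% for the variants, 67.2% for the core histones and 5.02% for all genes.

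H3-3B (ENSG00000132475, chr17:73772515-73781974, minus strand) carried 2 of the 7 replicate 1 peaks and 9 of the 51 replicate 2 peaks. In replicate 1 the peak at chr17:73774418-73776242 held 134 tags, scored 64.95 at a fold enrichment of 3.76, and reached from -382 to 1442 bp relative to the canonical TSS. In replicate 2 the peak at chr17:73774479-73776051 held 65 tags and scored 167.18 at a fold enrichment of 3.93. The replicate 2 peak lay wholly inside the replicate 1 peak and overlapped 86.2% of it. The summits did not coincide, being 250 bp downstream of the TSS, in intron 1, in replicate 1 and 891 bp downstream, in coding exon 3, in replicate 2, which is a distance of 641 bp. By tags the replicate 1 peak was higher than 91.6% of its list, but by score it was higher than only 43.5% and by fold enrichment than 6.29%. The replicate 2 peak stood above 95.2% of its list by tags and 92.2% by score, but above only 29.4% by fold enrichment. The rank of this site in both replicates thus depends on which of the deposited measures is read.

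The other interval common to both replicates lay at the 3′ end of H3-3B, more than 2 kb from any start site. The replicate 1 peak at chr17:73771801-73773057 held 60 tags with a score of 80.55 and had its summit in the 3′ untranslated part of exon 4. The replicate 2 peak at chr17:73771825-73772571 held 27 tags with a score of 75.54, and its summit lay 489 bp away, past the end of the gene. Of this replicate 2 peak, 87.4% of 50-base stretches occur once in the genome. In replicate 2, DEK peaks followed one another across the whole window of H3-3B at 3.06 per 10 kb, a density above that of 95.0% of coding genes. The one with most tags, chr17:73768920-73771613 with 92 tags and a score of 161.45, lay downstream of the gene. Peaks lay within 1 kb of a start site of the neighbour UNK, which encodes an RNA-binding zinc finger protein, with 69 tags and a score of 101.21 and with 54 tags and a score of 85.26. The first of these also covered an annotated upstream start of H3-3B itself. Another lay at a start site of GALK1, the galactokinase gene, with 53 tags and a score of 111.07. None of these 3 had a counterpart in replicate 1. H3K4me3 covered the canonical TSS of H3-3B in both replicates, with an interval of 4997 bp in replicate 1 and 3378 bp in replicate 2.

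H3-3A (ENSG00000163041, chr1:226249552-226259720, plus strand), which encodes the same protein, had no replicate 1 peak in its 30.2 kb window and 3 in replicate 2. The peak at chr1:226250324-226251043 held 24 tags, scored 136.99 at a fold enrichment of 6.13, and covered the canonical TSS with a summit 89 bp downstream in the 5′ untranslated part of exon 1. A neighbouring peak at chr1:226249232-226249992, 21 tags and a score of 68.25, lay at an upstream start site of the gene and ended 425 bp before the canonical one. The last, 14 tags and a score of 53.69, lay 18779 bp downstream of the start and beyond the gene. Over the canonical start in replicate 2, the H3-3A peak therefore held fewer tags than that of H3-3B, 24 against 65. The H3-3A peak was also narrower, 720 against 1573 bp, with 33.3 against 41.3 tags per kb. Its score was lower, while its fold enrichment was higher, 6.13 against 3.93. The neighbouring H3-3A peak of 21 tags is not part of this comparison. H3K4me3 covered the start in both replicates over 4438 and 4498 bp, within the range of H3-3B. The lowest score in the DEK lists was 50, and replicate 1 listed no peak with fewer than 18 tags. A weaker signal at H3-3A could not be seen in the list.

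**Figure D2:**
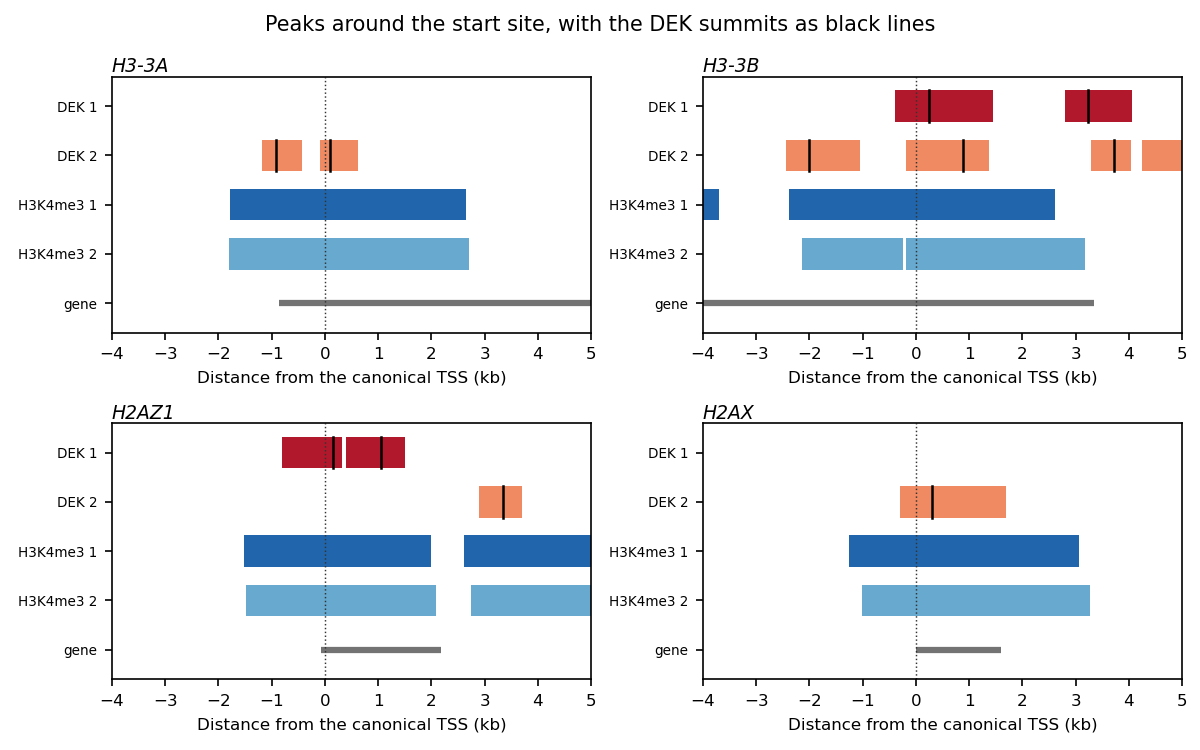
Peaks of the 4 lists around the canonical TSS (0 on the horizontal axis, in kb, transcription to the right) of H3-3A, H3-3B, H2AZ1 and H2AX, with DEK summits as black lines and the annotated gene as a grey bar. A DEK peak covers the start of H3-3B in both replicates, of H3-3A and H2AX in replicate 2 alone and of H2AZ1 in replicate 1 alone, while H3K4me3 covers all 4 starts in both replicates.

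H2AZ1 (ENSG00000164032, chr4:100869243-100871512, minus strand) encodes H2A.Z.1, the more studied of the 2 H2A.Z proteins. In replicate 1 its peak at chr4:100871106-100872231 held 41 tags with a score of 72.02 and covered the canonical TSS with a summit 151 bp downstream. A second peak at chr4:100869930-100871041, 52 tags and a score of 107.59, had its summit in intron 3, and this was the highest score among the 7 replicate 1 peaks of the variant genes. The 2 peaks together covered most of this short gene. In replicate 2 neither was listed. The only replicate 2 peak in the window, chr4:100867730-100868538 with 21 tags and a score of 125.16, lay at a start site of the neighbour DNAJB14, a co-chaperone gene, 1392 bp and 2568 bp from the replicate 1 peaks. All 3 peaks lay in H3K4me3 intervals of both replicates and in sequence of which at least 99.0% of 50-base stretches are single copy. A start-site peak in DEK replicate 1 and both H3K4me3 replicates, with none in DEK replicate 2, was shared by 371 coding genes, or 1.84%.

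H2AZ2 (ENSG00000105968, chr7:44866390-44887686, minus strand) encodes the closely related H2A.Z.2 and was the only one of the 8 genes with no DEK peak of either replicate within 1 kb of any annotated start site. Replicate 1 had no peak in the window. Replicate 2 had 5 peaks with 17 to 30 tags and scores of 53.28 to 96.43, and the nearest, in intron 2 with 20 tags and a score of 77.59, began 4893 bp downstream of the canonical TSS. No DEK peak of H2AZ2 met an H3K4me3 interval, although H3K4me3 covered its start in both replicates over 4413 and 4236 bp. All 5 peaks lay in partly repeated sequence, with 72.3% to 84.2% of 50-base stretches in single copy, and the part of repeats in these peaks was not tested. H3K4me3 in both replicates with no start-site DEK peak in either was found at 2344 coding genes, or 11.6%.

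H2AX (ENSG00000188486, chr11:118964584-118966175, minus strand) is a gene of a single exon, and in replicate 2 a DEK peak covered all of it. This peak at chr11:118964488-118966475 held 102 tags, the most of any replicate 2 peak in the 8 windows, and its score of 350.9 was also the highest of the 51. It was above 98.9% of the list by score and 98.3% by tags, and its fold enrichment of 4.58 equalled the list median. It reached from -300 to 1687 bp relative to the TSS and so took in the whole promoter printed above. Replicate 1 had no peak in the window of H2AX. H3K4me3 covered the start of H2AX in both replicates over 4326 and 4276 bp.

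MACROH2A1 (ENSG00000113648, chr5:134670071-134735604, minus strand) is the longest of the 8 genes and had the most replicate 2 peaks, 13, which corresponds to 1.52 per 10 kb. Replicate 1 had a peak in intron 2 with 75 tags and a score of 84.12, and one in intron 1 with 30 tags and a score of 55.60. Neither met a replicate 2 peak, and the nearest, chr5:134724318-134725233 with 31 tags and a score of 97.32, lay 839 bp and 3523 bp away over an internal start site. The replicate 2 peaks with the highest scores were outside the gene. One downstream at chr5:134658990-134661256 held 75 tags with a score of 327.54 in wholly single-copy sequence. One upstream at chr5:134739986-134740659 held 36 tags, scored 276.88 and had the highest fold enrichment of the 51, 10.11. In this peak 72.6% of 50-base stretches are single copy. At the canonical start itself the nearest peak was the weakest of the 51 by score, with 12 tags and 51.70, starting 918 bp downstream and so just within the 1 kb limit. H3K4me3 covered that start in both replicates over 4560 and 3437 bp.

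MACROH2A2 (ENSG00000099284, chr10:71812300-71872038, plus strand), whose product is a second macroH2A protein, had no DEK peak and no H3K4me3 interval at its canonical start. Replicate 1 had no DEK peak. Replicate 2 had 8 peaks with 13 to 42 tags and scores of 52.60 to 130.39, of which the nearest downstream of the canonical TSS began 22382 bp away in intron 1. The strongest, at chr10:71866300-71867623 in intron 7, held 42 tags and lay over the start of a shorter annotated transcript. H3K4me3 was limited to an interval of 1997 bp in intron 4 in replicate 1, and replicate 2 had none in the window. Start-site peaks in DEK replicate 2 and H3K4me3 replicate 1 alone were found at 349 coding genes, or 1.73%.

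CENPA (ENSG00000115163, chr2:26987157-27023935, plus strand) had peaks of both DEK replicates close to its start that did not overlap. In replicate 2 the peak at chr2:27008808-27010589 held 58 tags with a score of 150.06 and covered the canonical TSS, reaching from -116 to 1665 bp relative to it. In replicate 1 the peak at chr2:27011142-27012824 held 65 tags with a score of 59.73 and lay further into intron 1, 553 bp beyond the end of the replicate 2 peak. Both lists thus had a peak in this region without a shared interval. Of the other 9 replicate 2 peaks, the highest by score was chr2:27006567-27007904, 1020 bp upstream of the start, with 51 tags and a score of 181.00. The one with most tags, 84 with a score of 91.70, lay far upstream at a start site of SLC35F6, a solute carrier gene, where a longer transcript annotated to CENPA also starts. H3K4me3 at the canonical start spanned 5027 bp in replicate 1, where it also met the replicate 1 DEK peak, and 3345 bp in replicate 2, where it did not.

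**Figure D3:**
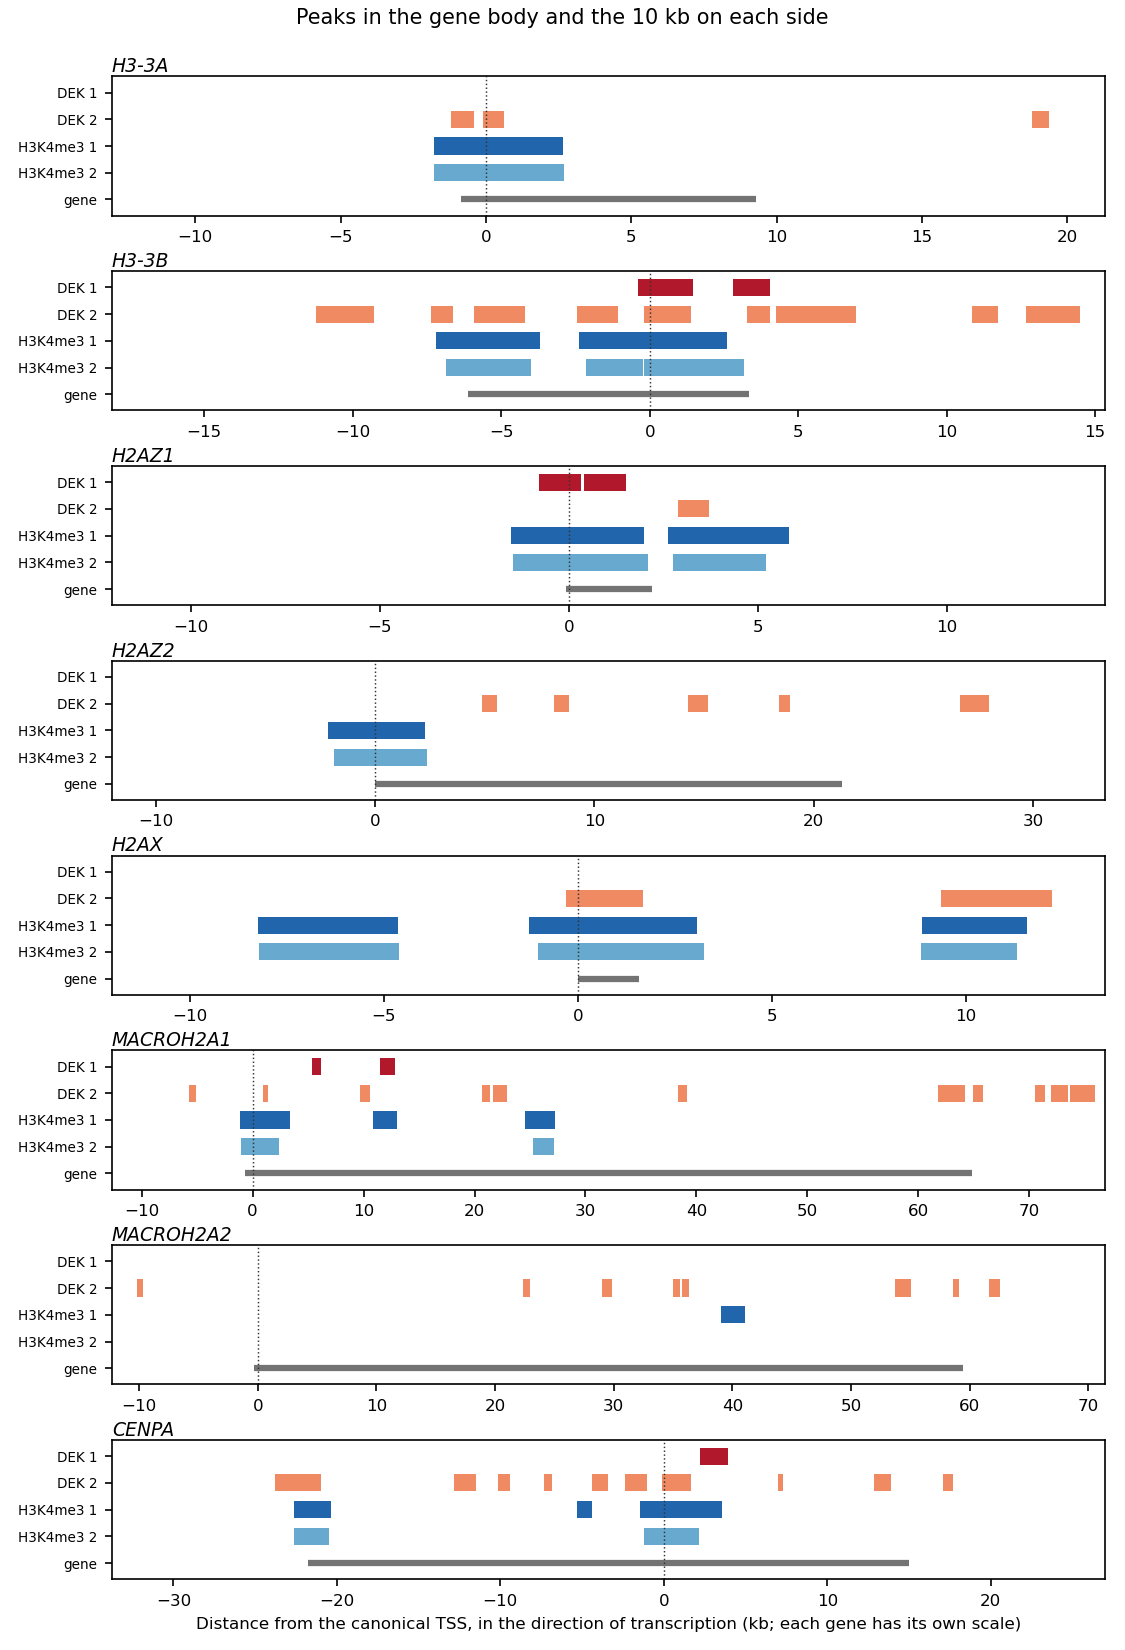
Peaks of the 2 DEK and 2 H3K4me3 lists in the body of each gene (grey bar) and the 10 kb on each side, against the distance from the canonical TSS in kb on a scale of its own for each gene. H3-3B is the only gene in which a replicate 1 DEK peak and a replicate 2 DEK peak overlap, and H2AZ2 and MACROH2A2 have no DEK peak within 1 kb of the canonical start.

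Across the genes, the 7 replicate 1 peaks held 30 to 134 tags with a median of 60, and 5 of them exceeded the list median of 47. Their scores were 55.60 to 107.59 with a median of 72.0 against 68.8 for the list, and 6 of the 7 had a fold enrichment below the list median of 5.57. The 51 replicate 2 peaks held 12 to 102 tags with a median of 26, and 37 of them exceeded the list median of 20. Their scores, with a median of 77.6, were divided evenly around the list median of 78.3, with 25 above it. In fold enrichment, 16 of the 51 exceeded the list median of 4.58. In both replicates most peaks of the variant genes thus held more tags than the list median. The scores lay close to their list median, and most fold enrichments did not exceed theirs. Most of these peaks were also wider than the list median, 6 of the 7 and 36 of the 51, and the part of width in the tag counts was not tested.

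**Figure D4:**
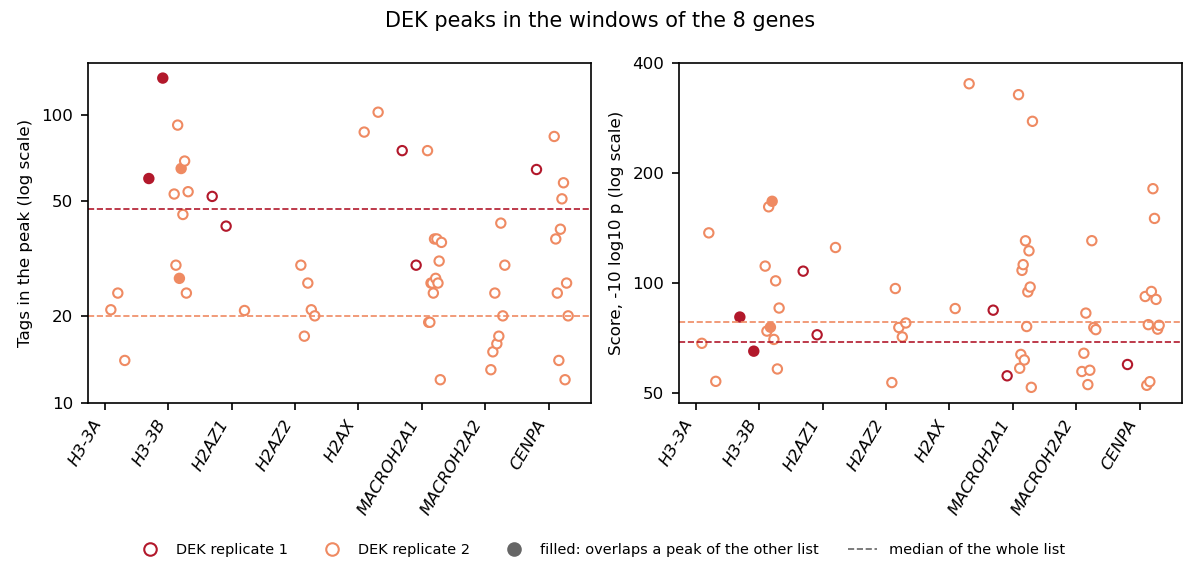
Each point is a DEK peak in the window of a gene, with its tags (left) and its score (right) on log axes, replicate 1 in dark red and replicate 2 in orange, filled where it overlaps a peak of the other replicate, and dashed lines at the median of each whole list. The filled points are those of H3-3B, and the highest score is 350.9 at H2AX.

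Of the 7 replicate 1 peaks, 4 overlapped an H3K4me3 interval of replicate 2, where 34% of all replicate 1 peaks did. Of the 51 replicate 2 peaks, 14 did so, against 8.05% of the whole list. The 14 were spread over 6 genes, with 5 at H3-3B, 3 at CENPA, 2 at H3-3A, 2 at H2AX, and 1 each at H2AZ1 and MACROH2A1.

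The DEK peaks over a canonical start also differed in sequence from most peaks of their lists, wherever those lie. They were not compared with start-site peaks of other coding genes, so whether this is particular to the variant genes was not tested. CpG dinucleotides in the start-site peaks of H3-3B, H2AZ1, H3-3A, H2AX and CENPA were denser than in 96.3% to 99.7% of peaks of the same list. Their G and C content ranged from 58.4% at H3-3B in replicate 1 to 66.7% at H3-3A. Most other peaks in the windows did not share this, since the median density was 1.83 CpG per 100 bases in replicate 1 and 2.12 in replicate 2, against 1.33 and 2.42 for the lists. Wholly single-copy sequence lay under 3 of the 7 replicate 1 peaks and 21 of the 51 replicate 2 peaks. Copy number was read for these peaks alone, so no share of a whole list stands beside these counts. In 23 of the 51 fewer than 90% of 50-base stretches were single copy, with a lowest value of 60.3%, whereas the lowest of the 7 replicate 1 peaks was 92.6%.

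Sorted by the lists that reached a start site, the 8 genes fell into 5 patterns. H3-3A, H2AX, MACROH2A1 and CENPA shared DEK in replicate 2 with H3K4me3 in both replicates, which is the commonest pattern of all and was seen at 7630 coding genes, or 37.8%. H3-3B had all 4 lists at a start site, as did 1474 genes, or 7.31%. H2AZ1, H2AZ2 and MACROH2A2 each had a pattern of their own, described above. Among all other coding genes, the 2 with start-site peaks most like those of H3-3B, by summed differences of percentiles over the 4 lists (score for DEK and width for H3K4me3), were DIAPH1, a formin gene, at a distance of 7.83, and MIDN, the midnolin gene, at 9.85.

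Genes for factors that deposit or modify these variants were examined in the same way. Of 8 genes for H3.3 deposition, 3 had a start-site DEK peak in replicate 1 and 6 in replicate 2, and 1 had a start-site interval shared by both. The shares of all coding genes were 10.2%, 62.4% and 5.02%. The gene with the shared interval was UBN2, a subunit of the HIRA complex. Its peak held 96 tags with a score of 82.25 in replicate 1 and 51 tags with a score of 87.71 in replicate 2. UBN1, its paralog in the same complex, had a start-site peak in each replicate, but the peaks did not overlap. They held 34 tags with a score of 79.89 in replicate 1 and 15 tags with a score of 107.9 in replicate 2. The DEK gene itself, placed in this list, had a replicate 1 peak of 23 tags and no start-site peak in replicate 2. The score of that peak, 50.45, was close to the lowest in the DEK lists, 50. The 9 genes for H2A.Z exchange had start-site peaks in replicate 2 at all 9 and in replicate 1 at 0. The 5 genes for H2A.X phosphorylation and readout had them at 4 in replicate 2 and 0 in replicate 1. The same shares apply to these lists, so that 0 of so few genes in replicate 1 is near the background. H3K4me3 of both replicates was near a start of every gene of these 3 lists and of 58.6% of all coding genes.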

How the data were processed

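Per the labels and the methods of the study, chromatin of U937 cells was sequenced as paired-end reads, aligned to hg19 with Bowtie 2, and searched for peaks with MACS 1.4.1 at default settings in each DEK precipitation separately, with chromatin without precipitation as control. The deposited lists give a count of tags that the authors did not normalize, a score of 10 times the −log10 p-value, a fold enrichment (a ratio to the local background) and a false discovery rate in percent. The deposited H3K4me3 lists hold positions alone, with no stated settings, and their starts were read as 1-based, as those of the DEK lists are.

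Peaks were joined to GENCODE 44 on GRCh37 (hg19) by position on chromosomes 1 to 22, X and Y. An overlap of 1 bp made an interval shared. No test was run, because there are 2 lists of unequal length. Background shares are over all protein-coding genes. Percentiles refer to the peak's own list. Promoters and the copy number of 50-base stretches were read from GRCh37, and 6 motifs were searched. Python 3.11.15, NumPy 2.4.6, pandas 2.3.3 and Matplotlib 3.10.9 were used, and overlap counts were tested on simulated data. All 8 genes were described, and other genes were named only as neighbours whose start lay within 1 kb of a peak, as members of lists of deposition factors with a shared start-site interval, or by likeness. DEK, as the precipitated protein, and UBN1 were named in addition, UBN1 after its values were seen. Some neighbours and listed genes are not reported here. The likeness rule called for scores, and interval width stood in for them in the H3K4me3 lists. The genes and lists were chosen with earlier results of these data known. The study states a minimum of reads per sample but no total for each, so tag counts were not scaled. Alternatives were other windows, score and overlap minimums, start sites, list lengths and single replicates.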

Additional observations from a re-analysis of the deposited data

How the results depend on the processing

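Of 44 counts recomputed under 12 alternatives, 27 stayed within 1.5 times the reported count and 17 did not. With a score of at least 100, replicate 1 kept 1 peak in 1 gene, replicate 2 kept 16 peaks, and 0 shared intervals were left in 0 genes, in the windows and near a TSS, because the replicate 1 peaks of H3-3B score below that. With the gene body alone, replicate 2 had 33 peaks. When replicate 2 was cut to its best-scoring peaks, as many as replicate 1 has (scores of 153.66 and above), it kept 6 peaks in 4 genes and 1 shared interval, at the start of H3-3B. With the outermost TSS of each gene alone, 0 genes had a shared interval near a TSS, since the outermost start of H3-3B lies upstream of the canonical one. With 1 replicate read by itself in place of the intersection, the count of intervals ranged from 7 to 51, of genes in the window from 4 to 8 and of genes near a TSS from 2 to 6. The canonical TSS, an alternative chosen after seeing the data, gave 2 genes in replicate 1, 5 in replicate 2 and 1 in both. No paired analysis was possible because the results come from no test. The unequal lists and the lack of read totals for each sample limit every statement on a peak that is not listed. The false discovery rate of 100% in replicate 1 limits every statement on a peak that is listed there. It applies to both replicate 1 peaks of H3-3B, on which the shared intervals rest.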
